A study of Homo sapiens with 16 samples.

Results

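The interferon regulatory factors are a family of DNA-binding proteins, and 8 of their genes were followed here: IRF1, IRF2, IRF3, IRF4, IRF5, IRF7, IRF8 and IRF9. They were taken by symbol from the 27311 genes listed for each of 16 RNA sequencing libraries from 4 human immune cancer lines. The lines are THP-1 and U937, both monocytic, the T cell line Jurkat and the B cell line BJAB. Each was sequenced after 4 hours of stimulation and untreated, with 2 libraries per group. In THP-1 the stimulus was 1 µg/ml of lipopolysaccharide (LPS), the bacterial product that TLR4 senses. Cells of both THP-1 groups carried dCas9-KRAB, a Cas9 that does not cut joined to a repressor domain. The other lines were labelled WT. In U937 it was 200 ng/ml of LPS, in Jurkat 5 µg/ml of anti-CD3 plus 100 ng/ml of PMA, a phorbol ester, and in BJAB 10 µg/ml of anti-IgM plus 4 µg/ml of anti-CD40. Each stimulated group was set against untreated cells of the same line. No label says whether the libraries of a group came from separate cultures, so errors and p-values cover the spread between these libraries, which may be technical.

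All members of the family share a DNA-binding domain that reads GAAA repeats, found in interferon-stimulated response elements. IRF3, IRF5 and IRF7 are latent in the cytoplasm and are switched on by phosphorylation downstream of innate sensors, after which they drive interferon and cytokine genes. IRF9 is the DNA-binding part of the complex ISGF3, which carries the type I interferon signal to the genome. IRF1 is an activator that interferon-gamma induces, and IRF2 is best known as its antagonist at shared sites. IRF4 and IRF8 act in blood cells with partners such as PU.1 and BATF, IRF8 in monocyte and early B cell development and IRF4 in activated lymphocytes and plasma cells.

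Promoter windows from RefSeq (GRCh38.p14, 250 bases before to 50 bases after a transcript start) were matched by symbol for 5 of the 8 genes. They were searched on both strands for 3 motifs. These were the core of the interferon-stimulated response element (GAANNGAAA), the gamma-activated sequence (TTCNNNGAA) and the NF-kB consensus. Of 35116 windows of the same length, 7.66% held the first, 7.66% the second and 5.91% the third. The windows of IRF1 and IRF9, genes known to answer interferon, are shown because IRF1 marked the T cell line and IRF9 changed on stimulation of the B cell line. The window of IRF4 is shown because that gene was nearly unread in all lines. Capitals mark motif matches.
IRF1 (chr5:132490724-132491023, minus strand): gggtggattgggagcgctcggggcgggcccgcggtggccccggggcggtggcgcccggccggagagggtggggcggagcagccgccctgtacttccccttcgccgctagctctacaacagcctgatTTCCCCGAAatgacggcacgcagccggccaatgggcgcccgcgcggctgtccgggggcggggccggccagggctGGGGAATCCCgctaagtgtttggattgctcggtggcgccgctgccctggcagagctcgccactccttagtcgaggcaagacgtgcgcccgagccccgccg
IRF9 (chr14:24161015-24161314, plus strand): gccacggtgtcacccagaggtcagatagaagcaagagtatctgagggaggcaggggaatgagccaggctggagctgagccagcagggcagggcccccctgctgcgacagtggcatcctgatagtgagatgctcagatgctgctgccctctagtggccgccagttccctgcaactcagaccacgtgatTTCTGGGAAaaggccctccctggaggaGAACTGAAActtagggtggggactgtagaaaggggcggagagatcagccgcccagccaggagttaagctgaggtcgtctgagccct
IRF4 (chr6:391502-391801, plus strand): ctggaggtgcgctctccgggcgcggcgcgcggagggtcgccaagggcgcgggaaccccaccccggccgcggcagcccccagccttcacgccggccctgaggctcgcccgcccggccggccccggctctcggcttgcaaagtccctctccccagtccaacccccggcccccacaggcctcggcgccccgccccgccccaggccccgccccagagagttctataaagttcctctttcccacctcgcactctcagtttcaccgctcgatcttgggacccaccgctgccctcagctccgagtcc
The IRF1 window held a gamma-activated match, TTCCCCGAA, at -124 from the transcript start and the NF-kB match GGGGAATCCC at -50. The IRF9 window held the response element match GAACTGAAA at -36 and a gamma-activated match, TTCTGGGAA, at -63. The IRF4 window held no match to these letters. Response element matches also lay in a window of IRF5 (GAAACGAAA at -33, on the opposite strand) and in a window of IRF8 (GAAAGGAAA at -117), which are not shown.

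Levels are transcripts per 1000000 (TPM), which are scaled for transcript length and can be set beside each other between genes. The depth recovered from the values was 3317689 to 8432224 reads per library. The highest marker of each line's list fitted its label. FCER1G stood at 3123 and 3045 TPM in untreated THP-1, and ELANE at 2600 and 2835 TPM in untreated U937. CD3D stood at 2333 and 2098 TPM in untreated Jurkat, and CD79B at 3005 and 3082 TPM in untreated BJAB. Some markers of other lines were read too. CD79A, a B cell marker, had 135 and 161 TPM in untreated Jurkat, and CD33, a monocytic marker, 84.3 and 79.8 TPM in untreated BJAB. In untreated Jurkat T cell markers summed to 5541 and 5229 TPM and B cell markers to 180 and 202 TPM. The libraries of a group differed by an SD of 0.351 to 0.46 in log2 across genes in 6 groups, but by 0.958 in stimulated BJAB and 0.891 in LPS-treated U937. In both, the first stimulated library stood apart, and calls that rest on these libraries are given with and without them. The spread was pooled over all 8 groups, so the standard errors of these 2 groups may be too small. Tests below are limma on log2(TPM + 1) of all libraries, two-sided and adjusted by Benjamini-Hochberg over 14398 tested genes, with a threshold of 0.05. Of the 8 genes, 7 passed the filter on low values, 1 TPM or more in 2 or more libraries. IRF4 did not, and the change of a low gene is understated on this scale.

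In untreated cells each line had its own make-up of these transcripts. IRF8 made up 83.1% of the summed TPM of the 8 genes in both untreated THP-1 libraries, 52.7% and 53.9% in untreated BJAB, and 41.2% and 41.4% in untreated U937. In untreated Jurkat IRF1 led, with 47.3% and 44.6%. The summed level was 1471 and 1373 TPM in untreated THP-1 and 379 and 377 TPM in untreated BJAB. In untreated U937 it was 216 and 237 TPM, and in untreated Jurkat 164 and 153 TPM.

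**Figure D1:**
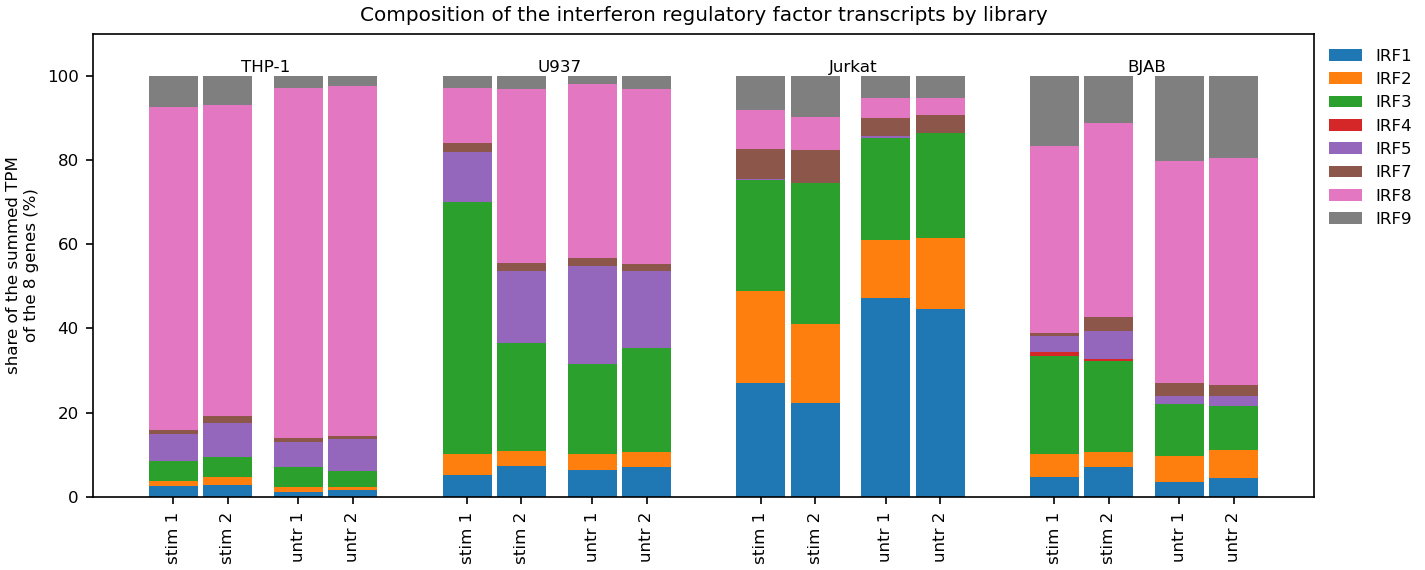
Share of each gene in the summed TPM of the 8 genes (%, vertical axis) in each of the 16 libraries, stimulated libraries (stim 1 and 2) left of untreated ones (untr 1 and 2) within each line. IRF8 fills 83.1% of both untreated THP-1 bars, and IRF3 fills 59.8% of the first LPS bar of U937, the only library of that line where IRF8 does not lead.

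IRF8, which guides monocyte and dendritic cell development and is also active in B cells, had the widest range of the 8, from 6.39 to 1223 TPM. Untreated THP-1 cells had 1223 and 1141 TPM, BJAB cells 200 and 203 TPM, U937 cells 88.9 and 98.1 TPM and Jurkat cells 7.85 and 6.39 TPM. The groups did not overlap. THP-1 stood above BJAB by 2.54 ± 0.71 on the log2 scale (SE, adjusted p = 0.015, limma). U937 stood above Jurkat by 3.54 ± 0.71 (adjusted p = 0.00227), while U937 and BJAB did not differ beyond their spread (-1.10 ± 0.71, adjusted p = 0.281). The higher level in THP-1 than in BJAB was no longer called in any of the fits that left out 1 of their 4 untreated libraries, where the adjusted p reached 0.075 at the same size of difference. The call over U937 was kept when either library of either line was left out. In THP-1 the gene was read 11781 times in the deepest library, and in Jurkat at least 49 times per library.

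IRF5, an activator of inflammatory cytokine genes in myeloid cells, ran in the order THP-1, U937, BJAB, Jurkat. Its untreated values were 87.9 and 102.99 TPM in THP-1, 50.2 and 43.1 TPM in U937, 6.71 and 8.79 TPM in BJAB, and 0.662 and 0 TPM in Jurkat. THP-1 and U937 did not differ beyond their spread (1.02 ± 0.62 log2, adjusted p = 0.287), U937 stood above BJAB (2.45 ± 0.62, adjusted p = 0.00936) and BJAB above Jurkat (2.75 ± 0.62, adjusted p = 0.0048). The call of U937 over BJAB passed in 12 of 16 alternative fits, with adjusted p up to 0.107, and that of BJAB over Jurkat in 15 of 16, with adjusted p up to 0.0516. In the T cell line IRF5 rested on 2 reads over both stimulated libraries and 8 over both untreated ones.

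IRF1 marked the T cell line. Untreated Jurkat cells had 77.7 and 68.2 TPM, against 17.1 and 22.3 TPM in THP-1, 13.7 and 16.7 TPM in U937 and 13.2 and 16.6 TPM in BJAB. The level in Jurkat was higher than in BJAB by 2.22 ± 0.57 log2 (adjusted p = 0.0106), and untreated THP-1 and U937 were lower than Jurkat by values of -1.85 ± 0.57 (adjusted p = 0.0261) and -2.19 ± 0.57 (adjusted p = 0.0116). The call over BJAB passed in 14 of 16 alternative fits (adjusted p up to 0.0724), that over THP-1 in 12 of 16 (up to 0.138) and that over U937 in 14 of 16 (up to 0.0725); all losses came from leaving out 1 untreated library. The other 3 lines were not distinguishable from each other. C5orf56, a non-coding gene on the opposite strand whose exons overlap those of IRF1 in GENCODE 29, was also highest in Jurkat, at 40.5 and 47.3 TPM after stimulation and 119 and 102 TPM untreated. The library labels name no strand-specific counting, so reads in the overlap cannot be assigned with certainty and the IRF1 values are uncertain to that extent.

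Among untreated lines IRF9 was highest in the B cell line and lowest in U937. BJAB, at 77.0 and 73.2 TPM untreated, and THP-1, at 43.0 and 31.7 TPM, did not differ beyond their spread (-1.005 ± 0.42 log2 for THP-1 minus BJAB, adjusted p = 0.0882). THP-1 stood above Jurkat, at 8.79 and 7.86 TPM, by 2.02 ± 0.42 (adjusted p = 0.0026). U937, at 4.14 and 7.52 TPM, and Jurkat were not distinguishable (-0.49 ± 0.42 for U937 minus Jurkat, adjusted p = 0.43). Within the pair of monocytic lines THP-1 stood above U937 by 2.52 ± 0.42 (adjusted p = 0.00086).

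IRF2 was close in untreated BJAB, at 23.5 and 25.8 TPM, and untreated Jurkat, at 22.8 and 25.8 TPM, with less in THP-1, at 19.1 and 11.5 TPM, and in U937, at 8.41 and 8.81 TPM. Only the end points separated: U937 was lower than Jurkat by a value of -1.39 ± 0.34 (adjusted p = 0.00724) and lower than BJAB by -1.42 ± 0.34 (adjusted p = 0.00628). IRF3 and IRF7 passed in 0 of 6 pairs of untreated lines. With each group's libraries weighted by their agreement, all 7 tested members, IRF2, IRF3 and IRF7 included, passed for untreated THP-1 minus Jurkat. That fit called 59.9% of all genes. IRF3, a constitutive sensor-activated factor, ran from 14.4 to 72.9 TPM with a median of 49.8 TPM over the 16 libraries. Its 5.06-fold range was the smallest of the 6 members that were above 0 in every library. IRF7, its interferon-inducible relative, ran from 0.479 to 17.4 TPM with a median of 8.66 TPM. The exons of IRF3 overlap those of BCL2L12 on the opposite strand, a gene at 35.1 to 87.0 TPM, so the IRF3 values carry the same uncertainty as those of IRF1.

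Such line differences were common across the genome. Of the 7 tested genes, THP-1 against U937 gave 2 calls (25.9% of all genes tested), THP-1 against Jurkat gave 4 (35.1%), THP-1 against BJAB gave 2 (35.5%), U937 against Jurkat gave 4 (32.6%), U937 against BJAB gave 3 (33.9%) and Jurkat against BJAB gave 4 (31.8%). Differences of this kind were thus frequent among all genes, and nothing particular to the family is drawn from these counts.

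**Figure D2:**
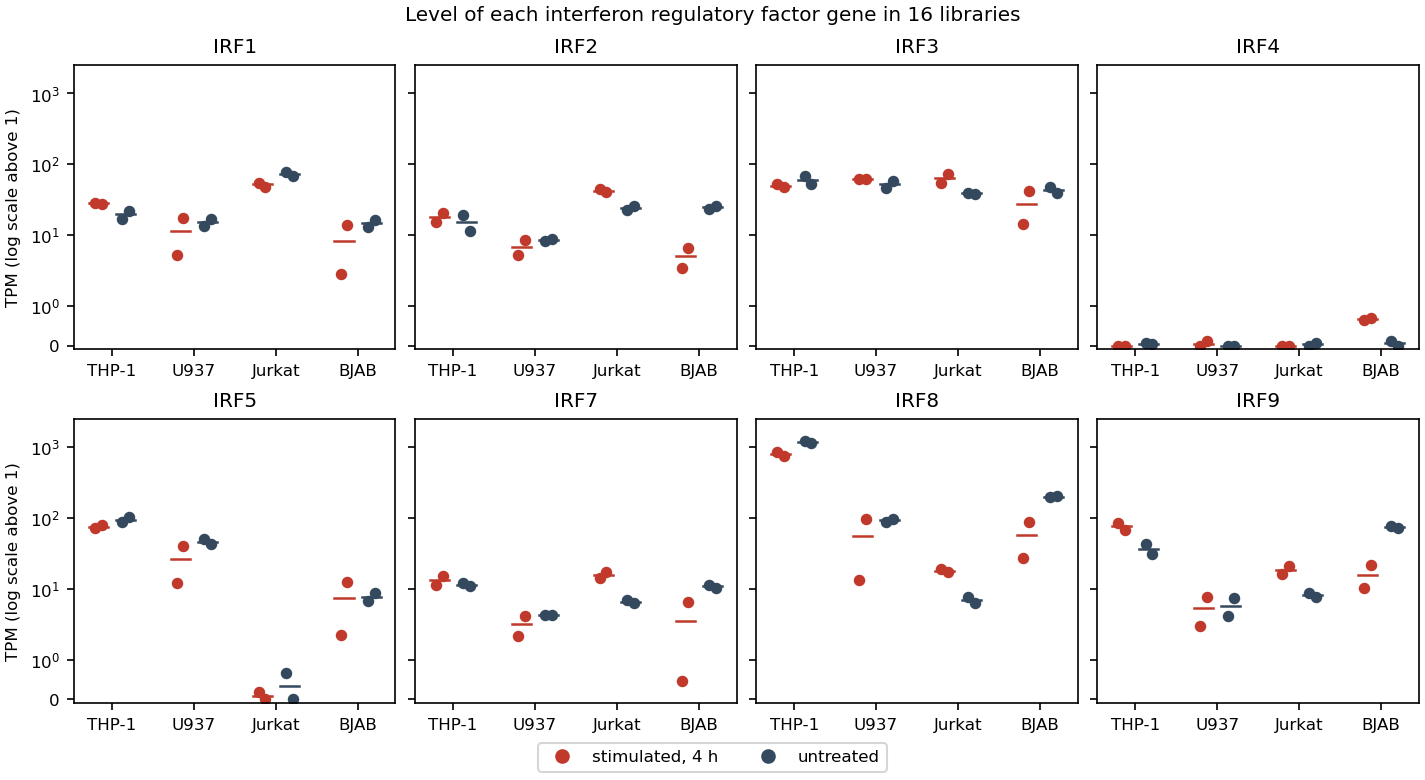
TPM of each gene (vertical axis, log scale above 1 TPM and linear below) by line, with stimulated libraries left of untreated ones; points are libraries and short lines are the means of 2 libraries. IRF8 runs from 6.39 TPM in an untreated Jurkat library to 1223 TPM in an untreated THP-1 library, and IRF4 lies under 1 TPM in all 16.

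Among the 4 stimulations, members of the family passed the test in BJAB alone, which was stimulated through the B cell receptor and CD40. IRF2 and IRF9 fell, 2 of 7 tested, against 4.76% of all genes tested that fell and 6.4% that changed either way. IRF9 had 10.4 and 21.7 TPM in stimulated cells, against 77.0 and 73.2 TPM in untreated cells. Both stimulated libraries lay far below both untreated ones, and the mean was 16.03 ± 7.99 TPM against 75.1 ± 2.68 TPM (SD, n = 2 each). The difference was -2.24 ± 0.42 log2 (SE, adjusted p = 0.00957, limma). IRF2 had 3.47 and 6.72 TPM in stimulated cells, against 23.5 and 25.8 TPM in untreated cells. Here too the groups were well apart, with a difference of -2.13 ± 0.34 log2 (adjusted p = 0.00343, limma).

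The second stimulated BJAB library, which resembled the other libraries, showed both falls on its own. With the first left out (together with that of U937), IRF2 was lower by a value of -1.73 (adjusted p = 0.00434) and IRF9 by -1.75 (adjusted p = 0.00663). Both lost their call when each group's libraries were weighted by their agreement, with adjusted p of 0.0631 for IRF2 and 0.0816 for IRF9. With the 4 BJAB libraries fitted alone the adjusted p were 0.324 and 0.332 for the same differences, in a fit that called 12 genes in all. With only the first stimulated library left out, IRF9 was at an adjusted p of 0.0777, and it also lost its call when either untreated library was left out (0.0678 and 0.0677).

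For other members in BJAB the stimulated libraries disagreed. IRF8 had 27.6 and 88.1 TPM in stimulated cells against 200 and 203 TPM in untreated cells (-2.00 ± 0.71 log2, adjusted p = 0.118), and IRF7 had 0.479 and 6.55 TPM against 11.5 and 10.3 TPM (-1.83 ± 0.57, adjusted p = 0.0801). For these genes too the stimulated libraries lay below both untreated ones, without passing the test. Without the first stimulated U937 and BJAB libraries IRF8 was lower by a value of -1.19 and passed (adjusted p = 0.00147), and IRF7 was lower by -0.65 and did not (adjusted p = 0.115, limma). In that fit 9.22% of all genes were called. IRF8 passed in 4 of 16 alternative fits, among them quantile normalization (adjusted p = 0.0407) and voom (0.0495). That made 4 of 7 tested members with all stimulated values below all untreated ones, against 32.9% of all genes tested. IRF1, at 2.88 and 13.8 TPM in stimulated cells against 13.2 and 16.6 TPM, IRF3, at 14.4 and 41.6 TPM against 47.3 and 39.1 TPM, and IRF5, at 2.29 and 12.6 TPM against 6.71 and 8.79 TPM, overlapped. In the second library alone their differences from the untreated mean were -0.09, -0.05 and 0.65 log2.

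The first stimulated BJAB library was low for genes of high GC content. The median difference from the untreated mean was -1.06 log2 in the fifth of genes with the highest GC content, which holds IRF3 and IRF7, and -0.67 in the next, which holds IRF1, IRF5, IRF8 and IRF9. IRF2 lies in the fifth next to the lowest, where the median was 0. In the second library these medians were -0.18, -0.09 and 0. IRF2 differed from the untreated mean by -2.52 in the first library and -1.73 in the second, and IRF9 by -2.74 and -1.75. The part of GC content in these differences was not tested.

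**Figure D3:**
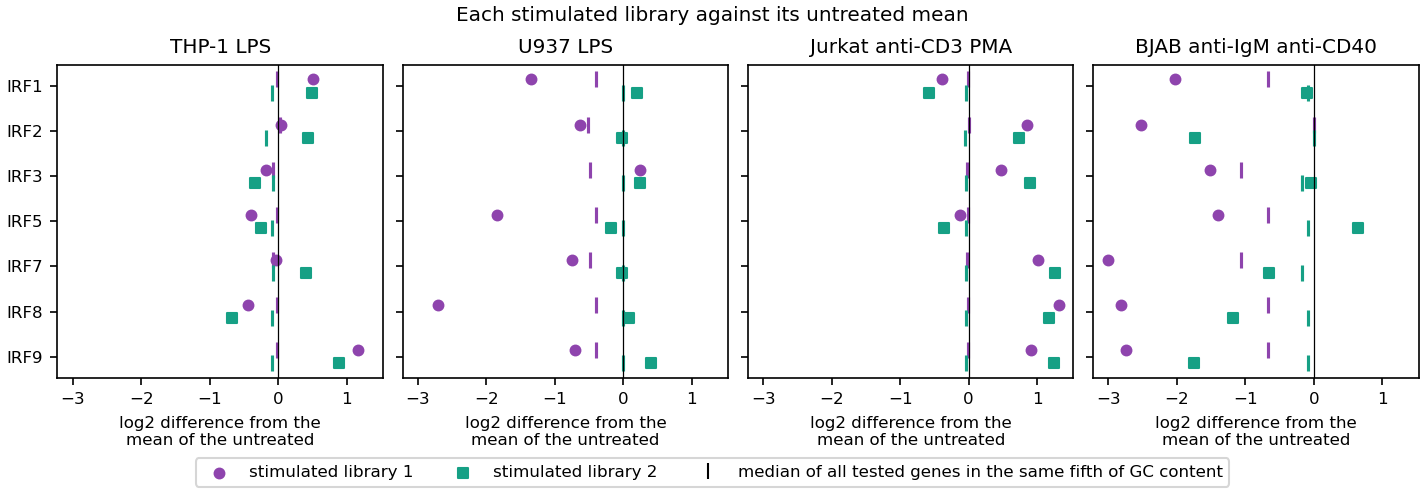
Difference of each stimulated library from the mean of its line's untreated libraries (log2(TPM + 1), horizontal axis) for the 7 tested genes, with the first library as circles and the second as squares. Vertical ticks mark the median of all tested genes in the GC class of the gene, with tested genes split into 5 classes of equal size; in BJAB the second library has IRF2 at -1.73 and IRF9 at -1.75, while IRF1 and IRF3 lie at -0.09 and -0.05.

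IRF4, which activated B cells induce on their way to plasma cells, was under 1 TPM everywhere and was highest in stimulated BJAB. It had 0.657 and 0.691 TPM there, 14 reads in each library, against 0.125 and 0 TPM in untreated BJAB, 2 reads and none. The rate of reads was 11.2 times higher over the stimulated libraries, with an exact conditional 95% interval of 2.83 to 97.3 that covers counting error only. With no filter on low values the difference was 0.66 ± 0.07 log2 (adjusted p = 0.000529, limma), in a fit that called 884 genes in BJAB. That error is pooled over groups in which this gene was nearly unread, so it may be too small. In the other 12 libraries IRF4 had at most 2 reads, and where it had none the limit of 3 reads allowed up to 0.144 to 0.331 TPM. Both stimulated BJAB libraries gave the same number of reads for this gene.

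After stimulation of Jurkat through CD3 with PMA, 0 of 7 tested members passed, against 4.87% of all genes tested. At an unadjusted p under 0.05 there were 2, IRF2 and IRF9, against 13.1% of all genes. Voom on recovered reads also called 0. Yet 5 of the 7 had both stimulated libraries above both untreated ones, against 21% of all genes. IRF9 had 16.6 and 21.1 TPM in stimulated cells and 8.79 and 7.86 TPM in untreated cells (1.08 ± 0.42 log2, adjusted p = 0.26). IRF2 had 44.5 and 41.0 TPM against 22.8 and 25.8 TPM (0.79 ± 0.34, adjusted p = 0.324). IRF7 had 14.6 and 17.4 TPM against 7.03 and 6.33 TPM (1.14 ± 0.57, adjusted p = 0.458). IRF8, a gene of myeloid and B cells, had 19.1 and 17.2 TPM against 7.85 and 6.39 TPM (1.24 ± 0.71, adjusted p = 0.579). IRF3 had 54.4 and 72.9 TPM against 39.6 and 38.2 TPM (0.68 ± 0.39, adjusted p = 0.585). The pooled error holds the spread of the stimulated BJAB and U937 pairs. With the Jurkat libraries fitted alone, 0 of these 5 members were called, with adjusted p from 0.0818 for IRF2 to 0.18 for IRF3 (limma). That fit called 368 genes in all. Without the first stimulated U937 and BJAB libraries these 5 members were all called in Jurkat, with adjusted p from 0.000139 for IRF8 to 0.0447 for IRF2, in a fit that called 1942 genes in all where the fit of all libraries called 701.

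IRF1 went the other way in Jurkat, with 55.4 and 48.6 TPM in stimulated cells against 77.7 and 68.2 TPM in untreated cells (-0.48 ± 0.57 log2, adjusted p = 0.981). C5orf56 was lower in the same libraries, as given above. The ratio of IRF1 to its antagonist IRF2 was 1.25 and 1.19 in stimulated Jurkat, against 3.41 and 2.64 in untreated Jurkat, and the groups did not overlap. In BJAB the same ratio was 0.83 and 2.05 in stimulated cells, against 0.561 and 0.643 in untreated cells.

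**Figure D4:**
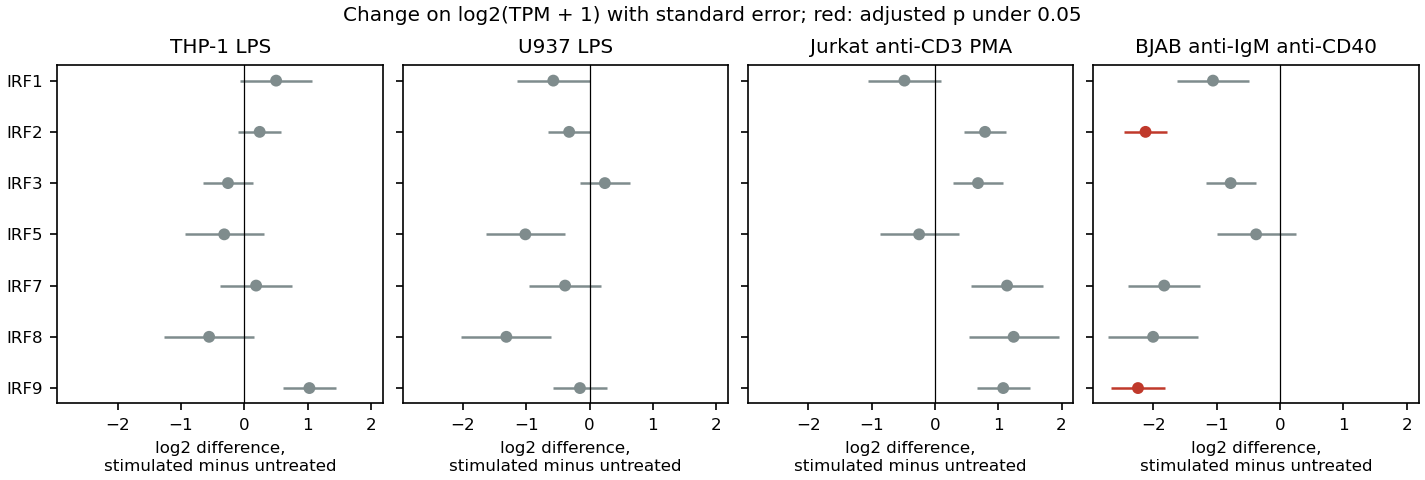
Difference between stimulated and untreated cells of each line (log2(TPM + 1), horizontal axis) for the 7 tested genes, as point and standard error from limma. Red marks the adjusted p under 0.05 of IRF2 (-2.13) and IRF9 (-2.24) in BJAB; all 7 points lie below 0 in BJAB and 5 lie above 0 in Jurkat.

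In THP-1 0 of 7 members passed after LPS, against 0.167% of all genes tested. At an unadjusted p under 0.05, reached by 3.63% of all genes, there was 1 member. That gene was IRF9, with 84.4 and 69.0 TPM after LPS and 43.0 and 31.7 TPM in untreated cells. Both LPS libraries were above both untreated ones, a difference of 1.03 ± 0.42 log2 with an adjusted p of 1. IRF1, which LPS induces in macrophages, had 28.3 and 27.8 TPM after LPS and 17.1 and 22.3 TPM in untreated cells (0.50 ± 0.57, adjusted p = 1). IRF8 had 871 and 742 TPM after LPS, below the 1223 and 1141 TPM of untreated cells (-0.56 ± 0.71, adjusted p = 1). IRF5 was also lower in both LPS libraries, at 72.4 and 80.2 TPM against 87.9 and 102.99 TPM (-0.32 ± 0.62, adjusted p = 1). IRF2, IRF3 and IRF7 overlapped between the groups. Voom on recovered reads also called none of the members. Among 8 genes listed to check the stimulation 0 passed in THP-1, with 4 at an unadjusted p under 0.05. Of these 8, NFKBIA had 213 and 187 TPM after LPS against 85.5 and 77.3 TPM (1.28 ± 0.26, adjusted p = 0.132, limma).

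In U937 0 of 7 members passed after LPS, against 0.0278% of all genes tested, and 0 by voom. At an unadjusted p under 0.05 there were 0, against 15.1% of all genes. The LPS libraries disagreed: IRF8 had 13.4 and 98.9 TPM after LPS against 88.9 and 98.1 TPM in untreated cells, and IRF5 had 12.2 and 41.1 TPM against 50.2 and 43.1 TPM. The second LPS library was near the untreated ones for both and the first far below. IRF9 had 3.06 and 7.72 TPM after LPS and 4.14 and 7.52 TPM in untreated cells, which overlapped. IRF3 was the exception, with 61.4 and 61.4 TPM after LPS against 46.0 and 58.3 TPM (0.24 ± 0.39 log2, adjusted p = 0.786). The median of all tested genes was -0.25 log2 in this comparison and -0.14 in BJAB, so small negative differences there are close to the bulk of genes. Among the 8 genes listed to check the stimulation 0 passed in U937, with 2 at an unadjusted p under 0.05. Of these 8, NFKBIA had 175 and 174 TPM after LPS against 57.3 and 65.6 TPM (1.49 ± 0.26, adjusted p = 0.124, limma). Leaving out the second LPS library, which leaves only the library that stood apart, brought 2 members past the threshold, in a fit that called 34.7% of all genes, 29.6% lower and 5.1% higher.

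The responses of lines were then compared with each other, which sets different ligands, doses and lines side by side. Between Jurkat and BJAB, 2 of 7 members differed in response, against 5.24% of all genes tested. The response of IRF2 was higher in Jurkat than in BJAB by 2.92 ± 0.47 log2 (adjusted p = 0.00352) and that of IRF9 by 3.32 ± 0.60 (adjusted p = 0.00622, limma). Both differences passed in all 20 alternative fits. Those of IRF7, 2.97 ± 0.80 (adjusted p = 0.0582), and IRF8, 3.25 ± 1.01 (adjusted p = 0.102), did not pass. For these 4 genes both stimulated libraries were above the untreated ones in Jurkat and below them in BJAB, 4 of 7 members against 5.47% of all genes tested. Between the responses of THP-1 and U937 to LPS, at different doses, 0 of 7 members differed, against 0.0486% of all genes tested. Voom gave 0, and at an unadjusted p under 0.05 there were 0, against 6.19% of all genes. For IRF9 that difference was 1.18 ± 0.60 (adjusted p = 0.746).

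Genes around the family in the interferon pathway were read from 8 lists. Over all genes tested, 3.02% rose and 1.85% fell in stimulated Jurkat, and 1.63% rose and 4.76% fell in stimulated BJAB. Of the 21 interferon genes, the ligands, 0 passed the filter on low values. All 21 were listed at 0 in the 4 THP-1 and the 4 U937 libraries. The values are labelled as unique alignments, so reads shared by closely alike genes may be missing, and a 0 is also limited by depth. IFNL3, a lambda interferon, was the highest in Jurkat, with 0.449 and 0 TPM after stimulation and 0 and 1.04 TPM untreated. Of the 6 interferon receptor genes 0 passed in any stimulation, with 1 at an unadjusted p under 0.05, in BJAB, and 0 by voom. IFNGR1, a chain of the interferon-gamma receptor, had 128 and 129 TPM in stimulated BJAB against 68.2 and 51.1 TPM (1.10 ± 0.56 log2, adjusted p = 0.254). Without the first stimulated U937 and BJAB libraries IFNGR1 passed, at a difference of 1.11. Of the 19 tested kinases and adaptors that activate these factors 0 passed in any line, with 7 at an unadjusted p under 0.05 in BJAB and 1 in each other line. Over all genes 24.2% had an unadjusted p under 0.05 in BJAB, 13.1% in Jurkat, 15.1% in U937 and 3.63% in THP-1. Voom called 2 as higher in BJAB and none elsewhere. TANK, in the same list, had 106 and 121 TPM in stimulated BJAB against 59.6 and 52.3 TPM (1.01 ± 0.31, adjusted p = 0.079). It passed without the first stimulated U937 and BJAB libraries, at a difference of 1.10. Among these genes MYD88, the adaptor of most Toll-like receptors, had 17.6 and 111.5 TPM in stimulated BJAB against 185 and 154 TPM (-1.89 ± 0.70, adjusted p = 0.133). Its difference was -0.59 (adjusted p = 0.0911) without the first stimulated U937 and BJAB libraries.

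Interferon-stimulated genes are driven in part by the complex that holds IRF9. In BJAB 8 of 34 tested fell and 0 rose, with a median of -0.82 log2 against -0.14 over all genes. OASL, an antiviral protein related to oligoadenylate synthetases, had 0.492 and 1.29 TPM in stimulated BJAB against 8.85 and 6.78 TPM (-2.24 ± 0.32, adjusted p = 0.0018). IFIT2, which blocks translation of viral RNA, had 2.35 and 0.385 TPM against 8.999 and 7.82 TPM (-2.12 ± 0.42, adjusted p = 0.0129). PARP12, an ADP-ribosyltransferase, had 0.0675 and 1.85 TPM against 11.8 and 7.70 TPM (-2.60 ± 0.45, adjusted p = 0.00636). USP18, which removes ISG15 and restrains interferon signalling and was listed with the JAK-STAT genes, fell as well, with 1.51 and 1.72 TPM against 14.8 and 9.73 TPM (-2.31 ± 0.27, adjusted p = 0.000397). All 4 kept their call without the first stimulated U937 and BJAB libraries, with differences of -1.93 for OASL, -2.76 for IFIT2, -1.89 for PARP12 and -2.26 for USP18. The count of 8 became 0 with array weights (0.952% of all genes lower) and 0 with the BJAB libraries alone (0.00695%). It rose without the first stimulated U937 and BJAB libraries, where more of all genes were called lower. It dropped without either untreated BJAB library, where fewer of all genes were called lower.

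In Jurkat 3 of the 34 interferon-stimulated genes fell and 0 rose, with a median of -0.42 log2 against -0.03 over all genes, although IRF9 and IRF7 had higher values after stimulation. RSAD2, the antiviral enzyme viperin, had 2.22 and 2.56 TPM in stimulated cells against 11.7 and 11.1 TPM (-1.87 ± 0.44, adjusted p = 0.0324). EPSTI1 had 0.739 and 1.02 TPM against 6.01 and 4.71 TPM (-1.76 ± 0.32, adjusted p = 0.00711) and XAF1 had 13.2 and 18.3 TPM against 38.9 and 33.1 TPM (-1.16 ± 0.27, adjusted p = 0.0283). The count of 3 rose without the first stimulated U937 and BJAB libraries, where more of all genes were called lower. It dropped when a Jurkat library was left out, where fewer of all genes were called lower. In THP-1 and U937 0 of 34 passed, with 3 and 6 at an unadjusted p under 0.05 and 0 by voom in both. In U937 the second LPS library left out, which leaves only the one that stood apart, gave 8 lower and 2 higher, beside the 29.6% and 5.1% of all genes given above.

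The JAK-STAT genes, which carry the interferon signal, moved in opposite ways in the lymphoid lines for SOCS1, a feedback inhibitor of JAK kinases. SOCS1 rose in Jurkat, with 11.3 and 12.8 TPM in stimulated cells against 0.916 and 1.43 TPM (2.60 ± 0.56 log2, adjusted p = 0.0208). In BJAB it fell, with 0 and 1.99 TPM in stimulated cells against 10.96 and 5.17 TPM (-2.31 ± 0.56, adjusted p = 0.0341), a call lost without the first stimulated U937 and BJAB libraries (-1.52, adjusted p = 0.132). STAT4, a signal transducer of interleukin-12, rose in Jurkat to 2.71 and 4.85 TPM, against 0.901 and 0.225 TPM in untreated cells (1.61 ± 0.26, adjusted p = 0.00276). These made 2 of 15 higher in Jurkat and, with USP18, 2 of 15 lower in BJAB. Each count was lower when any library of the line was left out, except the second stimulated BJAB library. Without that library the count in BJAB was higher, in a fit that called more of all genes lower. In THP-1 and U937 0 of 15 passed, with 1 and 2 at an unadjusted p under 0.05 and 0 by voom; without the second LPS library of U937, 10 were lower, against 29.6% of all genes.

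IRF2BP2, a co-repressor that binds IRF2, was called in both lymphoid lines. It rose in stimulated Jurkat to 89.1 and 77.9 TPM, against 32.4 and 23.0 TPM in untreated cells (1.57 ± 0.24 log2, adjusted p = 0.00208). In stimulated BJAB it had 21.0 and 19.6 TPM, against 11.1 and 9.43 TPM in untreated cells (0.93 ± 0.24, adjusted p = 0.0468). In BJAB it therefore rose where IRF2 fell. Its call there was lost when the first stimulated BJAB library alone or either untreated one was left out. Without the first stimulated U937 and BJAB libraries the call was kept, at a difference of 0.88. It was the only called gene of 10 tested cofactors and modifiers in either line, and 0 were called in THP-1 and U937 by limma or voom, with 0 and 1 at an unadjusted p under 0.05. Without the second LPS library of U937, 3 were lower and 1 higher, in the same fit that had 29.6% of all genes lower.

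Partners through which IRF4 and IRF8 reach DNA changed in BJAB, 3 of 16 lower and 1 higher. SPI1, which encodes PU.1, fell to 0.91 and 6.70 TPM, against 34.96 and 23.9 TPM in untreated cells (-2.96 ± 0.55 log2, adjusted p = 0.00926). SPIB, its close relative in B cells, fell to 15.3 and 60.8 TPM, against 173 and 222 TPM (-2.63 ± 0.53, adjusted p = 0.0142). BATF2 was listed at 0 in both stimulated libraries, against 3.65 and 3.22 TPM in untreated cells (adjusted p = 0.00066). PRDM1, which encodes BLIMP-1, the repressor that starts plasma cell differentiation, rose to 9.35 and 6.29 TPM, against 1.14 and 0.699 TPM (2.19 ± 0.32, adjusted p = 0.00196). Without the first stimulated U937 and BJAB libraries the differences of SPI1 (-1.96), SPIB (-1.67), BATF2 (-2.15) and PRDM1 (1.94) all passed. The count of 3 falls changed with the libraries left out, as did the falls over all genes. It was 0 in the BJAB libraries alone, a fit that called 1 gene lower of all tested. B cell markers moved in the same libraries: their summed level was 2965 and 5393 TPM in stimulated BJAB against 7049 and 7315 TPM in untreated BJAB, with CD79B and PAX5 lower and MS4A1 higher among the 10. Without the first stimulated U937 and BJAB libraries PAX5 (-1.46) and MS4A1 (0.93) kept their call and CD79B did not (-1.46, adjusted p = 0.0738). T cell markers summed to 104 and 89.8 TPM in stimulated BJAB against 101.6 and 98.7 TPM in untreated BJAB, and monocytic markers to 56.8 and 95.1 TPM against 118.5 and 106.5 TPM. In bulk samples fewer cells of a type and less RNA per cell cannot be told apart, and the part of these markers in the results was not tested. In Jurkat 1 of the 16 partners was called, JUND, with 18.3 and 17.9 TPM in stimulated cells against 6.66 and 4.78 TPM (1.52 ± 0.37, adjusted p = 0.0395), a call lost when any Jurkat library was left out. The count of partners called in Jurkat was larger without the first stimulated U937 and BJAB libraries, a fit that also called more of all genes there.

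In the list linked to IRF1 and interferon-gamma 1 gene was called after LPS, CXCL10. The median of the list was 0.10 log2 in THP-1 and -0.07 in U937, against -0.06 and -0.25 over all genes tested. CXCL10, a chemokine that attracts activated T cells, had 30.3 and 24.3 TPM in LPS-treated THP-1 and was listed at 0 in both untreated libraries (adjusted p = 4.5e-05). In LPS-treated U937 it had 46.1 and 44.3 TPM, against 0 and 1.48 TPM in untreated cells (4.87 ± 0.32 log2, adjusted p = 5.95e-05). It was the 1 called gene of 23 tested in each line, against 0.167% of all genes in THP-1 and 0.0278% in U937. IRF1 itself was not called, and the interferon genes were listed at 0 with the limits given above. The call was lost with the libraries of either line alone and, in U937, with array weights. In U937 the libraries that disagreed on IRF8 were alike for CXCL10, which kept its call there without the first stimulated U937 and BJAB libraries (4.84, adjusted p = 0.00255). In Jurkat 3 of the 23 rose, among them GBP3, a guanylate-binding protein, with 26.4 and 35.5 TPM against 9.83 and 9.37 TPM (1.58 ± 0.35, adjusted p = 0.0218). HLA-B, a class I molecule, rose by 1.05 ± 0.22 (adjusted p = 0.0148). In the other direction IL15, a cytokine for natural killer cells, fell to 0.852 and 0.852 TPM, against 5.55 and 3.95 TPM (-1.62 ± 0.25, adjusted p = 0.00207), and GBP1 fell by 0.72 on the log2 scale (adjusted p = 0.03). The 3 rises became fewer when a Jurkat library was left out, and more without the first stimulated U937 and BJAB libraries. The rises called over all genes changed the same way. In BJAB CIITA, the master activator of class II genes, had 0.163 and 0.458 TPM in stimulated cells against 2.54 and 1.80 TPM (-1.27 ± 0.26, adjusted p = 0.0161). It was the only call of 23, lost when the first stimulated BJAB library alone or either untreated one was left out. Without the first stimulated U937 and BJAB libraries the call was kept, at a difference of -1.11.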

How the data were processed

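RNA of 16 SmartSeq2 libraries, primed with oligo-dT per the labels' protocols, was sequenced in 8 groups of 2. Reads were aligned with TopHat2 to hg19, per the submitters' processing notes. The sources used here do not give the counting program, annotation or versions. The authors deposited 1 table of TPM per library, labelled as unique alignments and each summing to 1000000. Values of a gene are whole multiples of 1 read's TPM. Whole reads were recovered for 17860 of 19092 genes above 0 (93.5%, tolerance 0.0001), and the other 1232 were above 0 in 1 library. This gave 3317689 to 8432224 reads per library. Odd read counts were found for 48.5 to 51.0% of the 8476 genes with more than 5 reads in every library. Intervals cover counting error only.

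Genes with at least 1 TPM in at least 2 libraries (14398) were tested with limma 3.58.1 in R 4.3.3 on log2(TPM + 1), 1 coefficient per group, trend on, 8 residual degrees of freedom, 12 contrasts. The procedure was tested on simulated data. Alternatives were pseudocounts of 0.1 and 5, no filter, a minimum of 5 TPM, quantile normalization, median-of-ratios scaling, array weights, no trend, a replicate block, fewer libraries and voom on recovered reads. The members and gene lists were chosen with earlier results of these data known. Named genes were the members, the 3 genes most alike to each, and per list up to 4 called genes with the largest change, or else the 2 with the highest TPM. GENCODE 29 gave overlaps, lengths and GC content (96.2% of tested genes matched). Gene positions in hg19 are not used here.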

Additional observations from a re-analysis of the deposited data

Results flagged for a closer look

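The response of 4 genes ran in opposite directions in the lymphoid lines, with every stimulated Jurkat library above and every stimulated BJAB library below the untreated libraries of its own line. They were 4 of 7 tested members, and 5.47% of all genes tested had the same pattern. For IRF2 the response in Jurkat minus that in BJAB was 2.92 on the log2 scale (adjusted p = 0.00352, limma) and for IRF9 it was 3.32 (adjusted p = 0.00622), both past the threshold. For IRF7 it was 2.97 (adjusted p = 0.0582) and for IRF8 3.25 (adjusted p = 0.102). These did not pass, and they were flagged for the opposite directions alone. The adjusted p ran from 0.000183 to 0.242 over the alternatives for IRF7, which passed in 8 of 20, and from 9.4e-05 to 0.329 for IRF8, which passed in 5 of 20. Ligand, dose and line differ together between these responses and cannot be told apart.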

How the results depend on the processing

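Counts of called members are given here beside the share of all genes called. With only the Jurkat libraries fitted, the count in that line stayed 0 (2.56%). In Jurkat the count of 0 became 1 with quantile normalization (5.88%), 4 with array weights (12.9%) and 5 without the first stimulated U937 and BJAB libraries (13.5%). In BJAB the count of 2 became 0 with array weights (1.49%) and 0 with the libraries of that line alone (0.0833%), and ran from 1 to 6 over single libraries left out. The count in U937 ran from 0 to 2 (34.7% without the second LPS library), and that for the response of THP-1 minus U937 from 0 to 1 (17.8%). For Jurkat minus BJAB the count of 2 became 4 with median-of-ratios scaling (5.78%), quantile normalization (5.63%) and array weights (3.62%). It also rose without the second stimulated BJAB library and without the first stimulated U937 and BJAB libraries, where more of all genes were called. Array weights and the fit without those libraries both gave 5 for untreated THP-1 minus U937, 7 for THP-1 minus Jurkat, 4 for THP-1 minus BJAB and 5 for U937 minus BJAB, where array weights called 53.0 to 59.9% of all genes and the other fit 47.1 to 55.8%. The last was 1 with only these lines (23.5%), and THP-1 minus BJAB was 1 with any of its libraries left out.

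Reversed signs concerned uncalled differences. With quantile normalization U937 gave 0.0013 for IRF1, 0.21 for IRF2, 0.053 for IRF7 and 0.31 for IRF9, and BJAB 0.17 for IRF5. Median-of-ratios scaling gave 0.10 for IRF2 and 0.24 for IRF9 in U937. Without the first stimulated libraries, U937 gave 0.20 for IRF1, 0.0814 for IRF8 and 0.40 for IRF9, and BJAB 0.64 for IRF5. Over single libraries left out the ranges were -0.10 to 0.59 for IRF2 and -0.028 to 0.40 for IRF7 in THP-1, -1.35 to 0.20 for IRF1, -2.71 to 0.0814 for IRF8 and -0.70 to 0.40 for IRF9 in U937, -0.615 to 0.12 for IRF5 in Jurkat, and -1.40 to 0.64 for IRF5 in BJAB.

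Replicate numbers are not stated to pair libraries, and deviations of same-numbered libraries correlated at 0.012 in THP-1, -0.0421 in U937, 0.0174 in Jurkat and 0.142 in BJAB. With the number as a replicate block the counts of members were 0 in THP-1, U937 and Jurkat and 2 in BJAB, as without it. IRF4, at 35 reads in all, and IRF5 in Jurkat are limited by depth.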

Other observations

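The genes whose group means of log2(TPM + 1) followed each member most closely over the 8 groups were listed among 10302 genes, as a description without a test, since the groups share lines. For IRF5 they were IL6R (r = 0.995), the interleukin-6 receptor, then PLAGL1 (r = 0.995) and LAMC1 (r = 0.990). IL6R, like IRF5, was highest in untreated THP-1, at a mean of 96.2 TPM. For IRF8 they were TM2D2, LTC4S and INPPL1 (r = 0.976 to 0.978), of which LTC4S, the leukotriene C4 synthase of myeloid cells, ran from 0 to 133 TPM. For IRF1 they were POGZ, CCP110 and PRPF19 (r = 0.976 to 0.981), all highest in untreated Jurkat. IRF9 had looser neighbours, DLL4, TNIP1 and PWWP2A (r = 0.928 to 0.943), the second of which encodes an inhibitor of NF-kB signalling. IRF2 was nearest to PHLDB3, ZNF446 and IGHMBP2 (r = 0.959 to 0.974), IRF3 to MPG, SCAND1 and TEX264 (r = 0.928 to 0.966) and IRF7 to SPATA2L, TUBGCP2 and LENG8 (r = 0.945 to 0.954).

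Among the members themselves, IRF2 and IRF7 followed each other most closely over the 8 groups (r = 0.884), then IRF5 and IRF8 (r = 0.847) and IRF1 and IRF2 (r = 0.832). The lowest value was that of IRF1 and IRF5 (r = -0.489).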
